A study of Mus musculus with 8 samples.

Results

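Bone morphogenetic proteins (BMPs), the extracellular proteins that bind them and the Id genes were followed through kidney RNA-seq of mice injured with aristolochic acid. The 10 genes, chosen by symbol, were the ligands Bmp2, Bmp4, Bmp6 and Bmp7, the extracellular modulators Bmper, Grem1 and Sostdc1, and the Id genes Id1, Id2 and Id3. They were chosen with earlier results of these data known. They are 10 of 42256 Ensembl identifiers counted, and all 10 passed the low-count filter that left 15852 genes for the test. All 8 mice were adult males on a mixed background of 129S1/Sv and C57BL/6. Each had received 3 mg/kg of aristolochic acid, a plant toxin that damages the proximal tubule, daily for 5 days, and kidneys were taken 2 weeks after the last dose. By label, 4 mice were CDH11+/+ and 4 were CDH11-/-, a genotype of the gene Cdh11, which encodes cadherin-11, an adhesion protein of mesenchymal cells. Every mouse was injured, so there was no uninjured kidney to set beside these levels. Unx/AngII, the injury in the title of the series, is not the one its samples carry, and the sample labels were taken as given. The labels do not say how the Cdh11 allele was made or which part of the gene it removes.

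BMPs are dimeric signals of the TGF-beta superfamily that bind type I and type II receptor kinases, and the receptors phosphorylate Smad1, Smad5 and Smad9. These Smads, with Smad4, enter the nucleus and activate genes of which the Id family is among the best known. Id proteins lack a DNA-binding region and hold E proteins in inactive dimers. In the kidney, Bmp7 is known for its need in nephron formation and for opposing injury and fibrosis, and Grem1 and Sostdc1 are known as antagonists that limit it.

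Related members share coding sequence, and reads could be divided between them if the shared runs were long, so the closest coding windows are shown for each related set. The windows hold 75 bases of a single coding exon, in genome build GRCm38, written 5′ to 3′ on the coding strand with capitals at bases that are identical in every gene of the set. For the Id genes the windows lie at chr2:152736550-152736624 on the plus strand (Id1), chr12:25095796-25095870 on the minus strand (Id2) and chr4:136144034-136144108 on the plus strand (Id3).
Id1: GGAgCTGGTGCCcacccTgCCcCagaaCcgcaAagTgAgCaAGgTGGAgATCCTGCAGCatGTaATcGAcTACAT
Id2: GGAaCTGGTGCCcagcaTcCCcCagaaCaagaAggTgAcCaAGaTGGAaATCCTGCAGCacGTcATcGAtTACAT
Id3: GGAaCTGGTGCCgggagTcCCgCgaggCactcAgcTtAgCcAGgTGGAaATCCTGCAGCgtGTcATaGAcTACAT
In these windows 47 of 75 bases were identical in all 3 genes. Over the whole coding sequence, Id1 was 68.0% identical to Id2 and 70.2% identical to Id3, and Id2 was 69.6% identical to Id3, counted over aligned bases. The longest run shared exactly by 2 Id transcripts was 19 bases, between Id2 and Id3.

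Among the ligands, Bmp2 pairs with Bmp4 and Bmp6 with Bmp7 by sequence. The windows lie at chr2:133561431-133561505 on the plus strand (Bmp2), chr14:46384069-46384143 on the minus strand (Bmp4), chr13:38498736-38498810 on the plus strand (Bmp6) and chr2:172872889-172872963 on the minus strand (Bmp7).
Bmp2: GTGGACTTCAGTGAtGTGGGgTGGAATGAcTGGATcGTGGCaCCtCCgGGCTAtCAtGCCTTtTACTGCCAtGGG
Bmp4: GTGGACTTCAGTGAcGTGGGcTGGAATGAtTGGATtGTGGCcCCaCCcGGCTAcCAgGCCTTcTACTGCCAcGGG
Bmp6: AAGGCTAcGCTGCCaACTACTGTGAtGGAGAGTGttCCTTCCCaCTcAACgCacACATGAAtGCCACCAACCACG
Bmp7: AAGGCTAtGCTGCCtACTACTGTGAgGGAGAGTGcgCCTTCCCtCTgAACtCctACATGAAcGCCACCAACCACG
Each pair was identical at 64 of 75 bases in its window. The coding sequences were 67.4% identical for Bmp2 and Bmp4 and 70.5% identical for Bmp6 and Bmp7. The longest exactly shared run was 16 bases for the first pair and 25 bases for the second.

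Libraries held 10675309 to 18539479 counts, and values in CPM are read counts normalised by TMM-scaled library totals. CDH11+/+ replicate 1, the shallowest library, stood apart: on the second principal component of all tested genes, which carried 22.6% of the variance, it lay at 41.0 and the other 7 between -26.1 and 9.92. Cdh11 itself did not follow the labels. Its level was 75.6, 58.0, 61.7 and 59.0 CPM in replicates 1 to 4 labelled CDH11+/+ and 89.9, 91.3, 112.5 and 117.2 CPM in those labelled CDH11-/-. It was thus higher in the libraries labelled as lacking it (log2 fold change 0.69 ± 0.11 SE, edgeR quasi-likelihood adjusted p = 0.0243). A count over the whole gene cannot show whether its product is functional, so each direction below is between libraries as labelled. In the authors' normalized values the difference of Cdh11 was 0.26 ± 0.15 SE on the log2 scale and did not pass (adjusted p = 0.524 in limma).

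Of the 10 genes, Id1 alone passed the test, and it rose in the libraries labelled CDH11-/-. Its level was 23.6 ± 2.40 CPM (SD, n = 4) against 36.5 ± 5.58 CPM (SD, n = 4), a 1.55-fold difference with a 95% interval of 1.30 to 1.84. Id3 and Id2 also separated the labels in every library, Id3 with the higher values and Id2 with the lower values in the libraries labelled CDH11-/-, but neither passed. Of the 7 ligands and modulators 0 passed in edgeR, DESeq2 or limma-voom, and Bmp2 and Bmp4 had an unadjusted edgeR p under 0.05. Of all tested genes 14.1% had such an unadjusted p, in either direction. The share of all tested genes called higher by the same edgeR quasi-likelihood test was 0.372%, the share called lower 0.347% and the share called in either direction 0.719%. The CPM of the labels did not overlap for 3 of the 10 genes, 2 higher and 1 lower in the libraries labelled CDH11-/-. Over all tested genes 7.33% did not overlap, 3.59% higher and 3.74% lower. Because the 10 genes were chosen with earlier results of these data known, these shares are background and not a test.

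**Figure D1:**
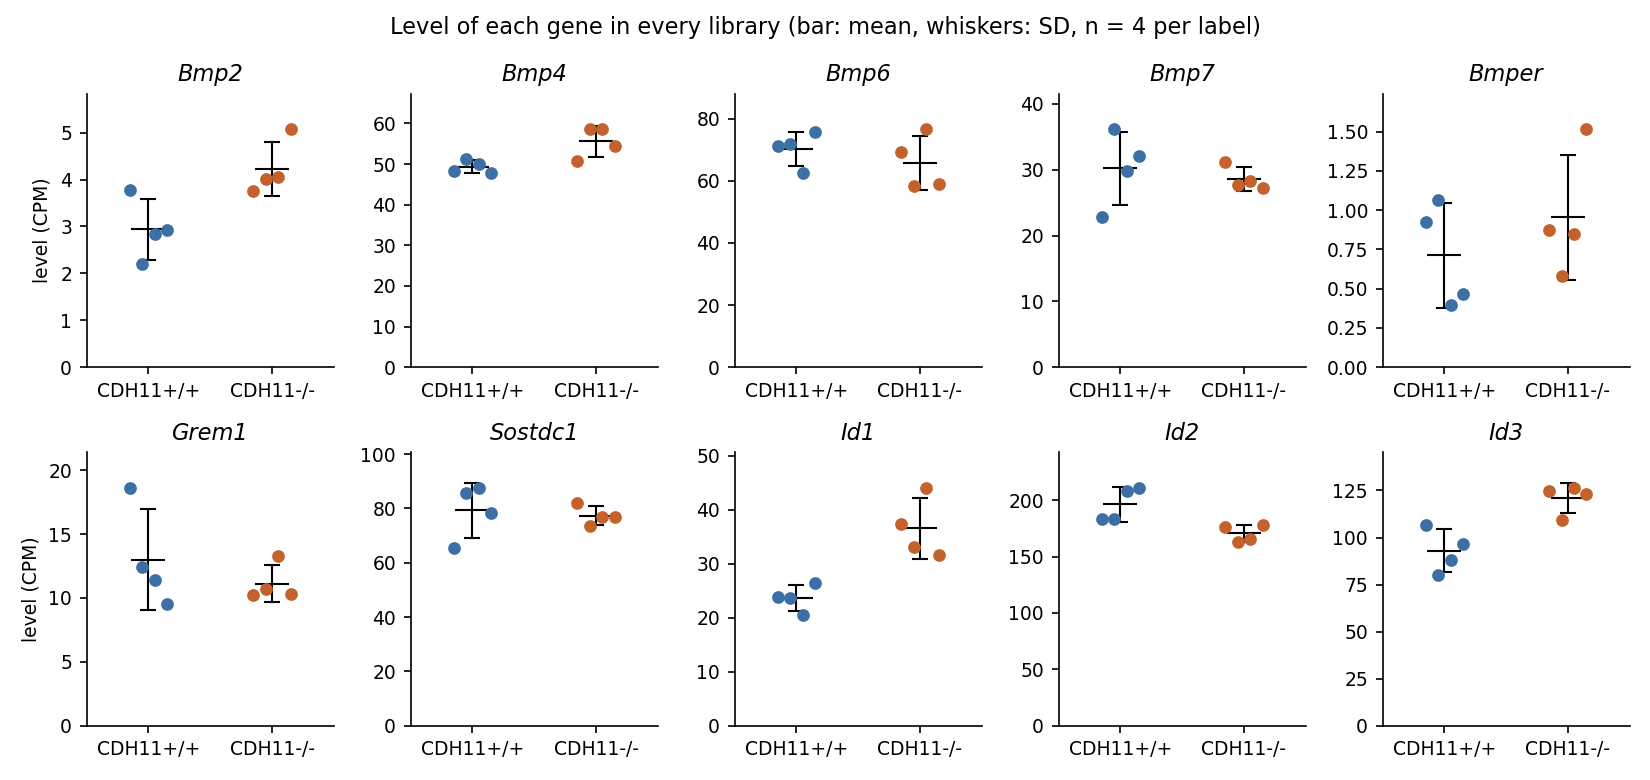
Level of each of the 10 genes in CPM (vertical axes, from 0) in every library, with 4 points per labelled genotype, a bar at the mean and whiskers of 1 SD. The points of the 2 labels are separate for Id1, Id2 and Id3 and overlap for the other 7 genes.

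Bmp2, a ligand of bone and vascular cells and the least abundant of the 4 ligands per kilobase, rested on 29 to 77 counts per library. It had 3.78, 2.20, 2.85 and 2.93 CPM in replicates 1 to 4 labelled CDH11+/+ and 3.76, 4.01, 4.06 and 5.07 CPM in those labelled CDH11-/-. All 4 libraries labelled CDH11-/- lay above the mean of the others, but CDH11+/+ replicate 1 reached into their range. The log2 fold change was 0.53 ± 0.21 SE (95% interval 0.07 to 0.98), which did not pass (edgeR quasi-likelihood adjusted p = 0.284). Without CDH11+/+ replicate 1 it was 0.67 with an edgeR adjusted p of 0.0913.

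Bmp4, a ligand known for its part in patterning the ureter and the stroma around it, had a highest level only 1.23 times its lowest, the smallest such ratio of the 10 genes. Its level was 48.3, 51.3, 50.0 and 47.7 CPM in the libraries labelled CDH11+/+ and 50.7, 58.6, 58.5 and 54.4 CPM in those labelled CDH11-/-. CDH11-/- replicate 1 lay among the libraries labelled CDH11+/+, and the other 3 lay above them. On the log2 scale the difference between the labels was 0.17 ± 0.07 SE (95% interval 0.03 to 0.32), with an adjusted p of 0.272 in edgeR. Bmp4 lies at chr14:46383520-46390669 on the minus strand, and exons of the predicted gene Gm15217 on the opposite strand overlap it. No source used here says whether strand entered the counting, and reads of both genes may be mixed. In the authors' own normalized values the log2 fold change of Bmp4 was 0.08 ± 0.12 SE.

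Bmp6, known as the ligand that sets hepcidin expression in the liver and expressed also in the kidney, was at 71.1, 71.7, 62.4 and 75.7 CPM in the libraries labelled CDH11+/+ and at 69.2, 58.2, 76.6 and 58.9 CPM in those labelled CDH11-/-. The highest and the lowest library both carried the label CDH11-/-, so the groups lay over each other. Between the labels the log2 difference was -0.09 ± 0.10 SE, with a 95% interval of -0.30 to 0.11 and an edgeR adjusted p of 0.711. Exons of Txndc5, on the opposite strand, overlap Bmp6 at chr13:38345107-38500302, with the same limit as for Bmp4.

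Bmp7 was at 22.9, 36.2, 29.8 and 32.1 CPM in the libraries labelled CDH11+/+ and at 31.2, 27.7, 28.3 and 27.2 CPM in those labelled CDH11-/-. Both the lowest and the highest values came from the label CDH11+/+, replicates 1 and 2, and all libraries labelled CDH11-/- lay between them. In edgeR the log2 fold change was -0.08 ± 0.12 SE with a 95% interval of -0.35 to 0.18 (adjusted p = 0.801). Its sign turned to 0.01 without CDH11+/+ replicate 2, and without replicate 1 it was -0.18 (edgeR adjusted p = 0.256). The interval leaves room for a fold of 0.786 to 1.13, so a change within that range is not excluded by these libraries.

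Per kilobase of exon (RPKM, the only scale here on which levels of different genes are compared), the sum of the 4 ligands was 48.3 ± 2.19 (SD, n = 4) in the libraries labelled CDH11+/+ and 49.9 ± 2.77 (SD, n = 4) in those labelled CDH11-/-. Bmp4 made up 45.5% ± 2.08 of that sum under the first label and 49.6% ± 3.15 under the second. Bmp6 made up 37.3% ± 2.39 and 33.7% ± 3.03, Bmp7 15.5% ± 2.31 and 14.3% ± 1.14, and Bmp2 1.73% ± 0.439 and 2.40% ± 0.415. The ranges of the labels overlapped for each of these shares, and no test was made on them. Measured as RNA per length, Bmp4 and Bmp6 together thus formed most of the ligand pool under either label, and Bmp7 was the third ligand.

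Bmper encodes a secreted protein that binds BMPs and can oppose or aid them. It was near the floor of the assay, with 5 to 20 counts per library. Its level was 0.923, 1.06, 0.396 and 0.463 CPM under the label CDH11+/+ and 0.873, 0.582, 0.845 and 1.51 CPM under CDH11-/-. The labels overlapped widely, and the log2 fold change of 0.41 ± 0.42 SE had a 95% interval of -0.52 to 1.34 (edgeR quasi-likelihood adjusted p = 0.721). In the authors' normalized values the log2 fold change was 0.75 ± 0.55 SE. No difference in Bmper was detected at this depth.

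Grem1, which binds Bmp2, Bmp4 and Bmp7 and keeps them from their receptors, was at 18.6, 12.5, 11.4 and 9.56 CPM under the label CDH11+/+ and at 10.2, 10.7, 13.2 and 10.3 CPM under CDH11-/-. One library from each label stood above its group, CDH11+/+ replicate 1 and CDH11-/- replicate 3. Grem1 had a log2 fold change of -0.22 ± 0.19 SE with a 95% interval of -0.64 to 0.20 (adjusted p = 0.656 in edgeR). It was 0.01 ± 0.14 SE without CDH11+/+ replicate 1 and 0.04 ± 0.16 SE in limma-voom. Among the edgeR fits that left out 1 library, the sign turned in that 1 alone.

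Sostdc1, known as USAG-1 and as the antagonist of Bmp7 most typical of distal tubule segments, was at 65.5, 85.6, 87.7 and 78.3 CPM under the label CDH11+/+ and at 82.0, 73.4, 76.9 and 77.0 CPM under CDH11-/-. Again the extremes came from CDH11+/+, and the libraries labelled CDH11-/- lay within 65.5 to 87.7 CPM. Its log2 fold change was -0.04 ± 0.09 SE, with a 95% interval of -0.23 to 0.15 and an edgeR adjusted p of 0.890. Its sign turned in 3 of 16 alternatives, with values of 0.0026 to 0.02. Per kilobase, Sostdc1 exceeded Bmp7 by 5.99 ± 0.655 (SD, n = 4) and 6.11 ± 0.207 times (SD, n = 4).

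**Figure D2:**
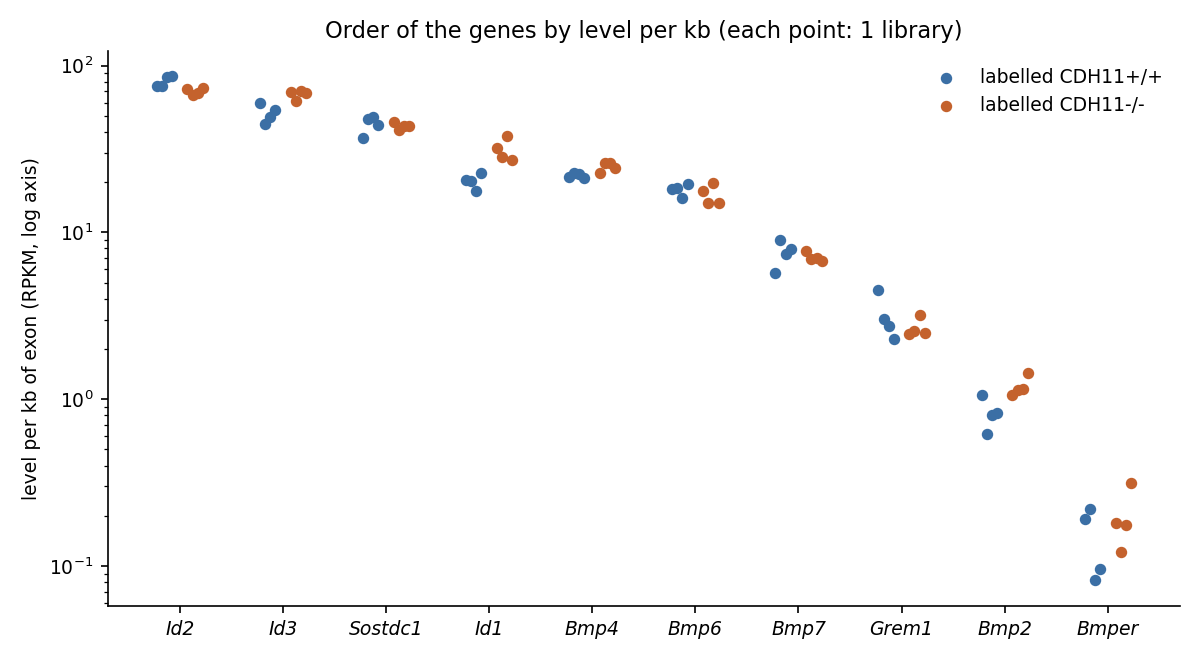
Level of each gene in RPKM (log axis) in every library, genes ordered by their mean over the 8 libraries and points coloured by labelled genotype. Levels run from Id2 at a mean of 75.3 RPKM to Bmper at 0.172 RPKM, and the points of Bmp4 (21.2 to 26.1 RPKM) lie within the wider range of Id1 (17.7 to 38.0 RPKM).

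In order of mean RPKM over the 8 libraries (± SD, n = 8), Id2 came first at 75.3 ± 7.28, followed by Id3 at 59.7 ± 9.79 and Sostdc1 at 44.0 ± 3.95. Id1 at 25.9 ± 6.87 and Bmp4 at 23.3 ± 1.91 were 0.378 of the larger SD apart, but that SD of Id1 includes its difference between the labels. Under CDH11+/+ Id1 was at 20.4 ± 2.07 and Bmp4 at 21.9 ± 0.725 RPKM (SD, n = 4). Under CDH11-/- they were at 31.5 ± 4.81 and 24.7 ± 1.68 RPKM (SD, n = 4). Bmp6 at 17.4 ± 1.86, Bmp7 at 7.32 ± 0.977, Grem1 at 2.91 ± 0.706, Bmp2 at 1.01 ± 0.251 and Bmper at 0.172 ± 0.0750 completed the order. From Bmp4 downward, each gene lay above the next in 8 of 8 libraries, as did Sostdc1 above Id1. Id2 lay above Id3 in 7 of 8 libraries and Id3 above Sostdc1 in 6 of 8. Id1 lay above Bmp4 in 5 of 8, namely all 4 labelled CDH11-/- and replicate 4 labelled CDH11+/+. The order was the same with the length of the longest transcript and with the authors' normalized values per kilobase.

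Id1, the classical immediate target of BMP signalling, lies at chr2:152736251-152737410 on the plus strand and overlaps no other annotated gene. It was at 23.8, 23.6, 20.6 and 26.4 CPM in replicates 1 to 4 labelled CDH11+/+ and at 37.3, 33.0, 44.1 and 31.7 CPM in those labelled CDH11-/-, from 258 to 835 counts per library. Every library labelled CDH11-/- was above every library labelled CDH11+/+. In the edgeR quasi-likelihood test Id1 rose by 0.63 ± 0.11 SE on the log2 scale, with a 95% interval of 0.38 to 0.88 (adjusted p = 0.0323). It ranked 76 among 15852 genes by p. Over 16 alternatives the log2 fold change stayed between 0.53 and 0.71, but the call ended in 7 of them, with adjusted p from 0.0605 to 0.118: in the authors' normalized values, with the authors' factors as offsets, and without CDH11+/+ replicate 2, 3 or 4 or CDH11-/- replicate 1 or 3. Without CDH11+/+ replicate 1, the library that stood apart, it was 0.65 (edgeR adjusted p = 0.0169).

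Id3, at chr4:136143497-136145755 on the plus strand, is an Id gene of endothelial, immune and stromal cells. It was at 106.8, 80.2, 87.9 and 96.8 CPM under the label CDH11+/+ and at 124.8, 109.4, 126.5 and 123.3 CPM under CDH11-/-. The labels did not overlap, and the closest libraries were CDH11+/+ replicate 1 and CDH11-/- replicate 2. The log2 fold change of 0.38 ± 0.09 SE (95% interval 0.19 to 0.57) missed the threshold (edgeR quasi-likelihood adjusted p = 0.0771). It passed in DESeq2 (adjusted p = 0.00682), in limma-voom (adjusted p = 0.0146), in edgeR with no low-count filter (adjusted p = 0.0269) and in edgeR without CDH11+/+ replicate 1 (log2 fold change 0.47, adjusted p = 0.00750). In those fits more of all genes passed as well, though with no filter the change was only from 114 of 15852 genes to 208 of 25108. DESeq2 called 3.51% of its genes (1.63% higher, 1.89% lower), limma-voom 4.28% (2.13% higher, 2.16% lower) and edgeR without CDH11+/+ replicate 1 called 6.25% (3.08% higher, 3.17% lower).

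Id2, at chr12:25093799-25097140 on the minus strand, is the Id gene of the set that epithelial cells are also known to express strongly. Its values were 183.06, 183.10, 208 and 211 CPM under the label CDH11+/+ and 176, 163, 166 and 178 CPM under CDH11-/-. Here the order was the opposite, with every library labelled CDH11-/- below every library labelled CDH11+/+, although the nearest pair lay close together. Id2 had a log2 fold change of -0.20 ± 0.07 SE with a 95% interval of -0.35 to -0.05 (adjusted p = 0.220 in edgeR). Limma-voom alone of the 16 alternatives put it past the threshold (log2 fold change -0.25, adjusted p = 0.0479).

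The log2 fold changes of Id1, Id2 and Id3 therefore did not share a sign, although Id1 alone passed the edgeR test. The counts of Id1 per count of Id2 in the same library, a quantity free of library scaling, were 0.121 ± 0.0148 (SD, n = 4; range 0.0987 to 0.130) under CDH11+/+ and 0.215 ± 0.0369 (SD, n = 4; range 0.178 to 0.266) under CDH11-/-. Counts of Id3 per count of Id2 were 0.476 ± 0.0736 (range 0.422 to 0.584) and 0.709 ± 0.0386 (range 0.672 to 0.763). Neither ratio overlapped between the labels, which follows from the separation of Id1, Id3 and Id2 given above and adds no evidence to it. Counts of Id1 per count of Id3 did overlap, at 0.223 to 0.295 and 0.257 to 0.348. These ratios were formed after the single genes had been seen and are given as a description with no test.

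**Figure D3:**
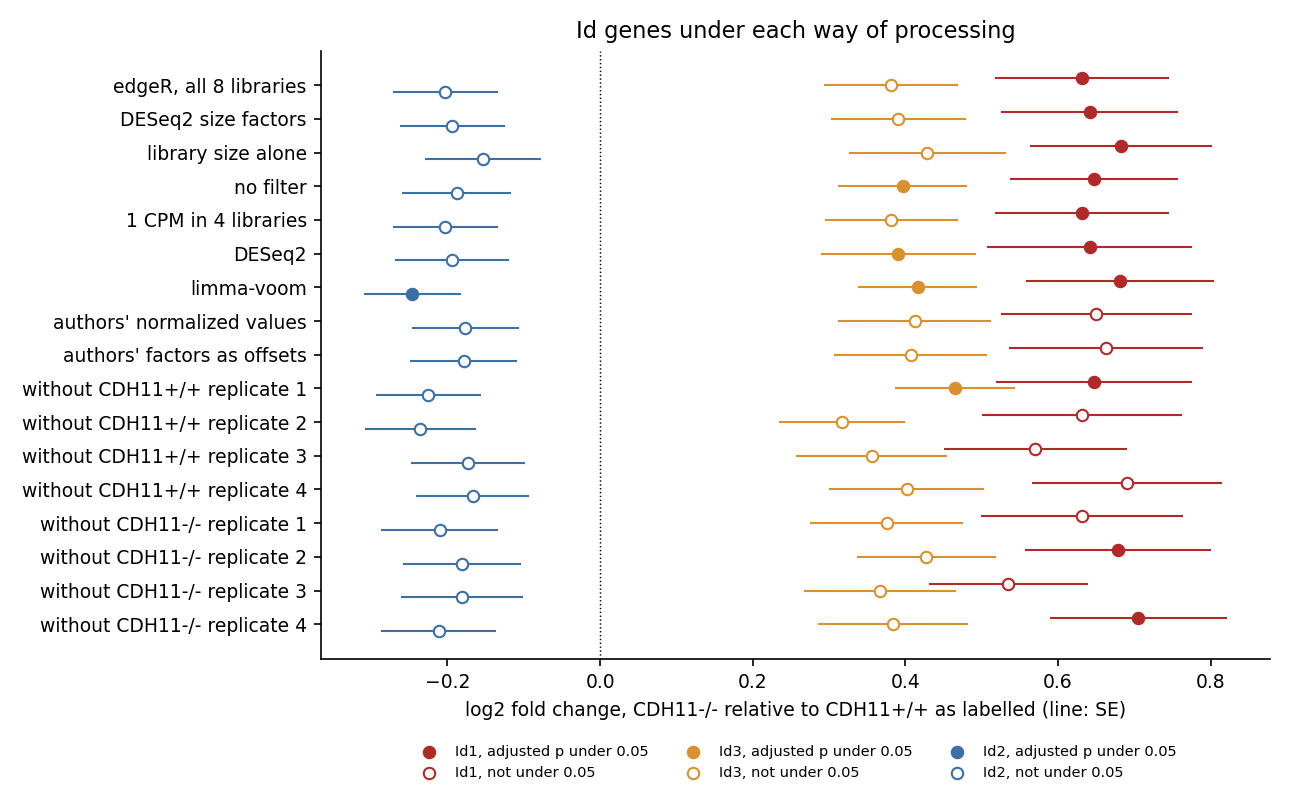
Log2 fold change (horizontal axis, libraries labelled CDH11-/- relative to CDH11+/+, lines of 1 SE) of Id1, Id3 and Id2 in edgeR with all 8 libraries and in 16 alternatives, with filled points at an adjusted p under 0.05. Id1 stays between 0.53 and 0.71 and Id2 between -0.25 and -0.15, while the filled points come and go with the setting.

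The kidney holds many cell types, and in bulk RNA fewer cells of a type and less RNA per cell cannot be told apart. Markers of several cell types moved with the labels alongside the Id genes. The 10 endothelial markers, of which Plvap and Pecam1 were the most abundant, summed to 476, 364, 428 and 413 CPM under the label CDH11+/+ and to 534, 531, 553 and 495 CPM under CDH11-/-. These sums did not overlap between the labels, and 10 of 10 markers had a positive log2 fold change, with a median of 0.32. The 10 proximal tubule markers, led by Slc34a1 and Aqp1, summed to 2128 to 4283 CPM and to 1474 to 2280 CPM, and 10 of 10 had a negative log2 fold change, with a median of -0.77. In edgeR 0 markers of either list passed, although 8 endothelial and 9 proximal tubule markers had an unadjusted p under 0.05, against 14.1% of all tested genes. DESeq2 called 6 of the 10 endothelial markers higher and 6 of the 10 proximal tubule markers lower. It called 1.63% of all its genes higher and 1.89% lower. Limma-voom called 8 endothelial markers higher and 3 proximal tubule markers lower, against 2.13% and 2.16% of all genes. The marker lists were chosen with earlier results of these data known, so the shares of all genes are background only.

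Fibroblast markers, led by Col3a1 and Col1a2, summed to 1476 to 2134 CPM under CDH11+/+ and to 1713 to 2442 CPM under CDH11-/-. Of these markers 7 of 8 had a positive log2 fold change, with a median of 0.32. Podocyte markers, led by Podxl and Synpo, summed to 358 to 511 CPM and 496 to 613 CPM. Here 6 of 6 were positive, with a median of 0.29. In each of these lists 4 markers had an unadjusted edgeR p under 0.05 and 0 passed. DESeq2 called 2 fibroblast markers and 1 podocyte marker higher, and limma-voom called 3 of each list higher. The counts of positive log2 fold changes were 5 of 5 for smooth muscle, 6 of 6 for macrophages, 3 of 5 for intercalated cells, 2 of 5 for collecting duct principal cells, 1 of 5 for the thick ascending limb and 0 of 5 for the distal convoluted tubule. In that order the medians were 0.43, 0.15, 0.06, -0.12, -0.13 and -0.39. Urothelium markers were positive for 4 of 4, with a median of 0.49. Positive values were thus not particular to endothelium. The sums of these lists overlapped between the labels, and the lists for red cells, adrenal and urothelium were at most 74.2, 4.52 and 11.9 CPM in any library. No marker was at 0 in every library. CDH11+/+ replicate 1 had the highest endothelial and fibroblast sums and the lowest proximal tubule sum of its group. The part of cell type shares in the differences of Id1, Id3 and Id2 was not tested.

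**Figure D4:**
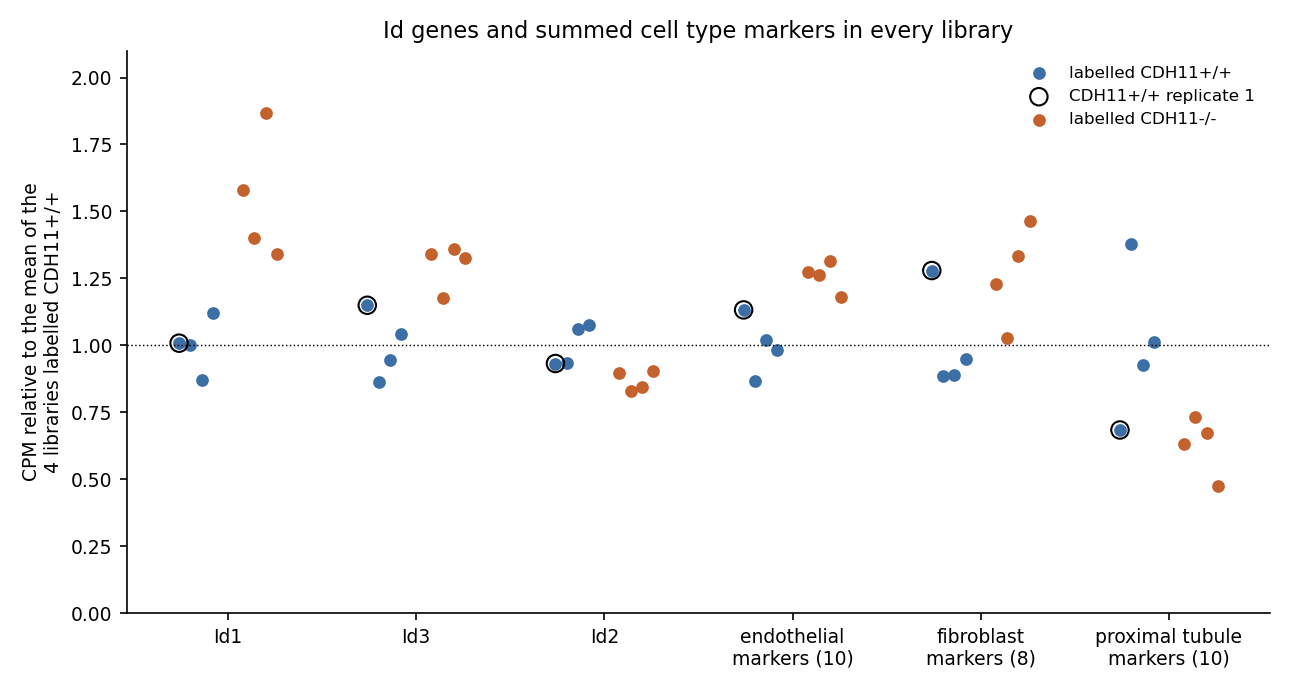
CPM of Id1, Id3 and Id2 and summed CPM of endothelial, fibroblast and proximal tubule markers in every library, each divided by the mean of the 4 libraries labelled CDH11+/+ (vertical axis, no unit, CDH11+/+ replicate 1 ringed). The endothelial sum separates the labels as Id1 and Id3 do, while the fibroblast and proximal tubule sums overlap because of the ringed library.

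Beyond the 10 genes, a wider list of 58 pathway genes was read from the same test, and 44 of them passed the low-count filter. In edgeR none passed the threshold in either direction, against 0.719% of all tested genes, and 7 had an unadjusted p under 0.05, all with positive log2 fold changes, against 14.1% of all tested genes in either direction. DESeq2 called 2 (Fst and Fstl3), limma-voom 3 (those and Nbl1) and edgeR without CDH11+/+ replicate 1 called 5 (those with Eng and Fstl1), all higher in the libraries labelled CDH11-/-. Of all genes those fits called 1.63%, 2.13% and 3.08% higher, and 3.51%, 4.28% and 6.25% in either direction. No set test was made on the counts of 2, 3 and 5 among 44 genes. The log2 fold change was positive for 32 and negative for 12, with a median of 0.10, beside a median of -0.01 over all tested genes. The CPM of the labels did not overlap for 5 of the 44 on the higher side and 2 on the lower side. Over all tested genes these shares were 3.59% higher and 3.74% lower. As the wider list was chosen with earlier results of these data known, they are background only.

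Of the other ligands, 4 of 11 were tested and 4 had positive values, Gdf10 at 0.41 ± 0.16 SE (edgeR adjusted p = 0.270) and Bmp8a at 0.73 ± 0.40 SE (edgeR adjusted p = 0.436) having the smallest p. Bmp8a was near the floor of the assay, at 0.277 to 1.48 CPM and at most 22 counts in a library. Among 7 receptors the log2 fold changes ran only from -0.09 to 0.19. Acvrl1, the type I receptor of endothelium also called ALK1, was at 0.19 ± 0.07 SE (edgeR adjusted p = 0.249), and Bmpr2, the main type II receptor, was at 0.14 ± 0.08 SE (edgeR adjusted p = 0.478). Of the co-receptors, Eng, the endothelial endoglin, was at 0.16 ± 0.08 SE and Rgmb at 0.10 ± 0.08 SE.

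The widest spread within a role was among the other extracellular modulators, where 12 of 16 were tested and 6 were positive. Follistatin, encoded by Fst and best known for binding activins, was at 114, 97.2, 65.7 and 104 CPM under the label CDH11+/+ and at 174, 136, 162 and 156 CPM under CDH11-/-. The labels did not overlap, and the log2 difference was 0.72 ± 0.16 SE (adjusted p = 0.0893 in edgeR). The related Fstl3 was at 22.0, 18.1, 17.2 and 19.0 CPM and at 22.7, 23.5, 25.1 and 24.8 CPM, again without overlap, with a log2 difference of 0.34 ± 0.09 SE (adjusted p = 0.132 in edgeR).

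Inside the cell, Smad1 was at a log2 fold change of 0.14 ± 0.08 SE and Smad5, which shares its role, at -0.11 ± 0.06 SE, neither passing the edgeR test (adjusted p = 0.436 and 0.428). Smad5 did not overlap between the labels, narrowly, at 76.5 to 83.7 CPM under CDH11+/+ and 67.6 to 76.2 CPM under CDH11-/-. The inhibitory Smad7 had 31.2, 30.5, 31.3 and 31.8 CPM under CDH11+/+ and 37.0, 36.2, 36.7 and 32.2 CPM under CDH11-/-. The labels were separate, with CDH11-/- replicate 4 near the other group, and the log2 difference was 0.19 ± 0.07 SE (adjusted p = 0.249 in edgeR). Bambi, a decoy receptor without a kinase, was at 0.33 ± 0.16 SE (edgeR adjusted p = 0.382). Its labels were also separate, narrowly, at 4.18 to 5.22 CPM under CDH11+/+ and 5.24 to 7.12 CPM under CDH11-/-.

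Other BMP targets were tested for 6 of 8 genes and 6 had positive values, with a median of 0.29. Tmem100, an endothelial target of ALK1 signalling, was at 1.03 ± 0.49 SE (edgeR adjusted p = 0.384) and the transcription factor Atoh8 at 0.26 ± 0.18 SE (edgeR adjusted p = 0.555). The partners that Id proteins bind were close to level, with Tcf12 and Tcf4 at 0.03 ± 0.07 and 0.03 ± 0.08 SE. The sign of Tcf12 turned in 1 alternative and that of Tcf4 in 3, down to -0.10 in the authors' normalized values.

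**Figure D5:**
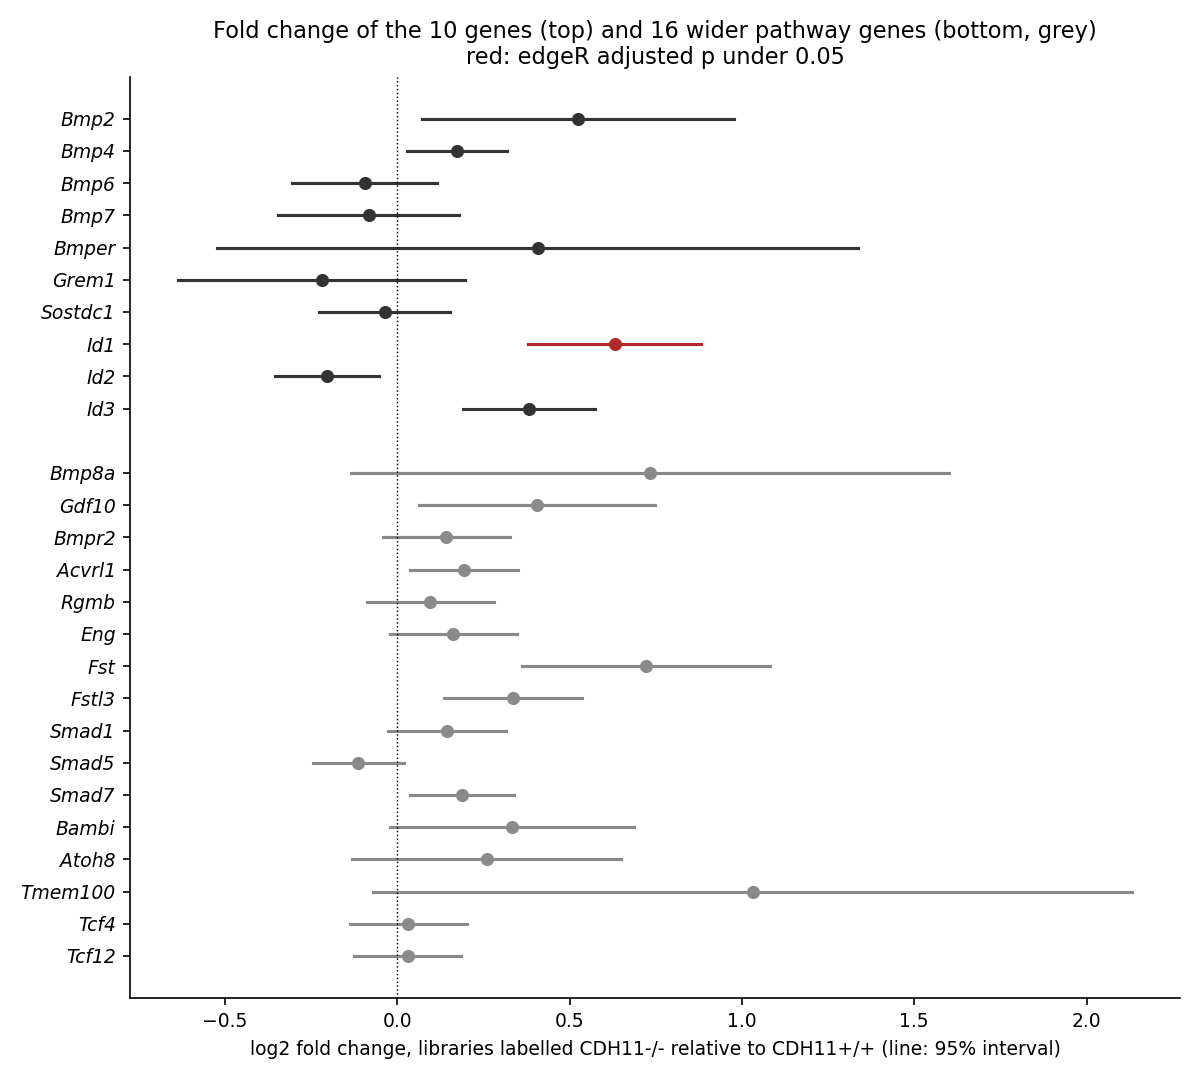
Log2 fold change with its 95% interval (horizontal axis, libraries labelled CDH11-/- relative to CDH11+/+) of the 10 genes at the top and of 16 wider pathway genes, those of smallest p in each role, in grey. Id1 is the gene in red, past the edgeR threshold, and most grey points lie to the right of 0.

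The 7 genes whose labels overlap gave 21 pairs, and their log2 CPM was correlated across the 8 libraries. The closest pair was Bmp7 with its antagonist Sostdc1, at Pearson r = 0.84 (exact permutation p = 0.0135, adjusted over 21 pairs 0.284) and Spearman rho = 0.76 (exact permutation p = 0.0368, adjusted 0.386). Without the 2 libraries farthest from the median of Bmp7, CDH11+/+ replicates 1 and 2, r was 0.50. Leaving out the extremes narrows the range and can lower r by itself, so whether the relation rests on those libraries is not settled. Bmp2 and Bmp7 had r = -0.70 (exact permutation p = 0.0563, adjusted 0.592) and rho = -0.76 (exact permutation p = 0.0368, adjusted 0.386), and r was -0.48 without the 2 libraries farthest from the median of Bmp2. Of the 21 pairs, 1 had an unadjusted Pearson p under 0.05 and 0 had an adjusted one. Pairs with an Id gene were not computed because the labels do not overlap in these genes.

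Each of 4 members was also compared with 12029 genes of at least 5 CPM by Pearson r of log2 CPM over the 8 libraries, as a description. Nearest to Id1 were Reck, a membrane-anchored inhibitor of matrix proteases (r = 0.97), Ruvbl2, an ATPase of chromatin complexes (r = 0.97), and Gdf15, a stress-induced cytokine of the TGF-beta superfamily (r = 0.97). These genes and Id1 share the separation of the labels, so r over the 8 libraries includes that difference. They were also picked as the highest r among 12029 genes. Nearest to Bmp7 were Tmem177 (r = 0.98), Ciao2a (r = 0.96) and Morn1 (r = 0.96), and all 4 were lowest in CDH11+/+ replicate 1 and highest in CDH11+/+ replicate 2. Nearest to Sostdc1 was Kcnj10, a potassium channel of the distal nephron (r = 0.96), then Mrpl9 (r = 0.96) and Casp9 (r = 0.95). Nearest to Bmp6 were Ugt1a6a (r = 0.96), Pik3r4 (r = 0.94) and Btbd11 (r = 0.93).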

How the data were processed

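The authors deposited raw counts per Ensembl gene and, in a second table, a normalized signal equal to the count over a factor of its own for each gene and library. DRAGEN, DESeq2 and the build mm10 are listed per the submitters' processing notes. Tool versions and the use of strand were not given in the sources used here. Per the labels' protocols the library kit was directional. Names, positions and sequences came from GENCODE M21 on GRCm38.

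Counts were tested with the edgeR 4.0.16 quasi-likelihood test in R 4.3.3 (TMM scaling, edgeR low-count filter, labelled genotype as the only term), with Benjamini-Hochberg adjustment over 15852 genes and a threshold of 0.05. SEs were obtained as |log2 fold change| over the root of F. Log2 CPM used a prior count of 2. The code was tested on simulated data. The common biological coefficient of variation was 13.5%, and 1 CPM is about 10.7 counts in the shallowest library, so counting error limits genes near that level. Replicates were numbered in order of deposit, and a number only names a mouse. Alternatives were DESeq2 1.42.0 and its size factors, library size alone, no filter, a filter of 1 CPM in 4 libraries, limma-voom with library quality weights (limma 3.58.1), the authors' normalized values (pseudocount 1), their factors as offsets, and leaving out each library. The 10 genes, the 8 pathway roles and the 13 marker lists (144 symbols, 144 matched) were chosen with earlier results of these data known. Named were the 10 genes, Cdh11, the 2 pathway genes of smallest p in each role, the 3 genes most like each of 4 members among genes of at least 5 CPM, and the 2 most abundant markers of a list. Nbl1 and Fstl1 were named after their values were seen, to say which genes a count holds.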

Additional observations from a re-analysis of the deposited data

Results flagged for a closer look

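For each gene named from the 10 genes, Cdh11 and the 16 pathway genes, the 4 libraries of a label were checked for 1 library far from the others. Chance marks about 1 in 20 such groups, and 3 of 54 groups were marked. Grem1 in CDH11-/- replicate 3 was at 13.2 CPM while the other 3 libraries of that label lay between 10.2 and 10.7 CPM. Smad7 in CDH11-/- replicate 4 was at 32.2 CPM, below the 36.2 to 37.0 CPM of the others. Atoh8 in CDH11+/+ replicate 2 was at 3.27 CPM, below the 4.47 to 4.71 CPM of the others.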

How the results depend on the processing

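The 16 alternatives kept the sign of the log2 fold change for Id1, Id3, Id2, Bmp2, Bmp4 and Bmp6, and in the 15 that could be fitted for Bmper. The sign turned for Grem1 in limma-voom (0.042), for Sostdc1 with library size alone (0.017) and for Tcf4 in the authors' normalized values (-0.103) and with their factors as offsets (-0.102). With a library left out it turned for Bmp7 (-0.182 to 0.014, positive without CDH11+/+ replicate 2), Grem1 (-0.343 to 0.011, positive without CDH11+/+ replicate 1), Sostdc1 (-0.106 to 0.015, positive without CDH11+/+ replicate 2 or 3), Tcf12 (-0.015 to 0.072, negative without CDH11+/+ replicate 3) and Tcf4 (-0.020 to 0.099, negative without CDH11-/- replicate 4). No scaling moved the median of all genes by more than 0.05. The cause of these turns was not tested. Of the 10 genes, 1 passed in edgeR, 2 with no filter, 2 in DESeq2, 3 in limma-voom, 0 in the authors' normalized values, 0 with their factors as offsets, and 0 to 2 when a library was left out (0 without CDH11+/+ replicate 2, 3 or 4 or CDH11-/- replicate 1 or 3). Of the wider pathway, 2 passed in DESeq2, 3 in limma-voom and 0 to 5 with a library left out, 5 without CDH11+/+ replicate 1 and 1, Fst, without CDH11+/+ replicate 3. Of all genes, 114 passed in edgeR, 208 with no filter, 535 in DESeq2 (of 15222 with an adjusted p), 679 in limma-voom, 54 in the authors' normalized values, 50 with their factors as offsets and 26 to 1004 with a library left out, 26 without CDH11+/+ replicate 4 and 1004 without CDH11+/+ replicate 1. Fewer libraries also leave fewer degrees of freedom. The log2 fold change of Cdh11 was 0.26 in the authors' normalized values and 0.24 with their factors as offsets, neither past the threshold, and 0.64 to 0.80 with a library left out, where the call ended without CDH11+/+ replicate 2, 3 or 4 or CDH11-/- replicate 3 or 4. The order of levels and the count of pairs did not change in their 2 alternatives each. No paired analysis was possible because the labels give no replicate numbers, and numbers in order of deposit pair no mice. Depth limits Bmper most.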
